A study of Rattus norvegicus with 75 samples.

Results

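The genes described here are 52 genes of the second part of the cell cycle, from the G2 to M transition to the division of the cell, which build or control the mitotic spindle and the kinetochores. They were chosen by gene symbol in the deposited expression table, and 51 of the 52 were found there among 32754 gene rows. Ccnb2 was not matched. The list was made with earlier results of these data known, so its shares beside those of all genes are a description. The members fall into 9 roles: the cyclin-CDK1 switch and its regulators, mitotic kinases, partners in the chromosomal passenger complex, the spindle checkpoint, the anaphase-promoting complex with its substrates, the kinetochore and centromere, motors and spindle proteins, chromosome structure, and cytokinesis.

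RNA sequencing was done on kidney tubule segments microdissected from male Sprague-Dawley rats. The cortical collecting duct (CCD) is the segment whose principal cells take up water under vasopressin, and the cortical thick ascending limb (cTAL) takes up salt. Rats ate food that held no lithium (control) or lithium chloride at 40 mM per kg, and the series asks how lithium starts nephrogenic diabetes insipidus, a failure of the kidney to concentrate urine. The 12 h CCD groups held 3 control and 2 lithium libraries, the 24 h and 36 h groups held 3 of each kind, and the 72 h groups held 17 control and 19 lithium libraries. For cTAL, 12 control and 10 lithium libraries of 72 h were analysed and none of an earlier time. Values are TPM, a level per transcript length that is scaled to the same total in every library, and the read depth behind them is therefore unknown.

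Entry into mitosis is driven by CDK1 bound to cyclin A2 or cyclin B1. Wee1-type kinases such as the product of Pkmyt1 hold the kinase inactive and Cdc25 phosphatases release it. The spindle then attaches to chromosomes at kinetochores, the spindle checkpoint holds back the anaphase-promoting complex until all are attached, and CDC20 activates that complex to destroy securin and cyclin B. Most of these genes are transcribed late in the cycle. In resting cells they are held down by the DREAM complex and in G2 they are switched on by B-MYB and FOXM1. The adult collecting duct divides rarely, and proliferation of its cells is a known feature of lithium treatment.

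A pair of promoter motifs are known for this class of genes and were looked up because the members moved together. One is TTTGAA, the letters of the cell cycle genes homology region at which DREAM binds, and the other is CCAAT, the letters of the site of the factor NF-Y. Promoter windows of 300 bases (250 before and 50 after a gene's start) came from RefSeq on the rat build GRCr8 and were searched on both strands. The expression values were made on Rnor_6.0, so the coordinates given here belong to the sequences alone. A window was matched for 43 of the 52 members. TTTGAA was in 28 of these 43 (65.1%), against 18.3% of 33469 windows of all genes and 2 of 31 (6.45%) windows of genes of the preceding phase, G1/S and DNA replication. CCAAT was in 32 of 43 (74.4%), against 37.5% of all windows and 64.5% of the G1/S windows. Both motifs were in 53.5% of member windows, 7.41% of all windows and 1 of 31 (3.23%) G1/S windows. At least 2 CCAAT were in 55.8% of member windows and 11.2% of all windows. Within 50 bases on either side of the start, TTTGAA was in 46.5% of member windows and 5.19% of all windows. Over 77 other G2/M genes that are no members, 68 had a window, of which 51.5% held TTTGAA and 52.9% CCAAT. These shares are a description of letters, and they show no binding.

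The 150 bases before the start of 8 members are shown 5′ to 3′ on the strand of the gene, so that the layout of the motifs can be seen. Motifs wholly inside the stretch are in capitals, as TTTGAA or its reverse TTCAAA, and as CCAAT or its reverse ATTGG. Cdk1, Cdc20, Prc1, Tacc3, Top2a and Pttg1 hold both motifs, Ccnb1 holds CCAAT 2 times and no TTTGAA, and Ndc80 holds neither in this stretch. The stretches are Cdk1 at chr20:19265143-19265292 (plus strand), Cdc20 at chr5:137255800-137255949 (minus strand), Prc1 at chr1:143659331-143659480 (plus strand), Tacc3 at chr14:81289699-81289848 (minus strand), Top2a at chr10:84473094-84473243 (minus strand), Pttg1 at chr10:28406327-28406476 (minus strand), Ccnb1 at chr2:33655226-33655375 (minus strand) and Ndc80 at chr9:118887530-118887679 (minus strand).
Cdk1: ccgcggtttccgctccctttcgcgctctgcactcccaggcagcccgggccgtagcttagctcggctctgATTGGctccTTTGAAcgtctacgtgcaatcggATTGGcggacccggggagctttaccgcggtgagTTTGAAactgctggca
Cdc20: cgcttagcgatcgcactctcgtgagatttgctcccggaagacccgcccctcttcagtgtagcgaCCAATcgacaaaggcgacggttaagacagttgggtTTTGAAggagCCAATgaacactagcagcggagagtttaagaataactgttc
Prc1: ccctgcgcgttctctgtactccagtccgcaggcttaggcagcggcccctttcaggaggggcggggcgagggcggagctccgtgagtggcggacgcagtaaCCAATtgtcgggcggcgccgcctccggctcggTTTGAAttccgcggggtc
Tacc3: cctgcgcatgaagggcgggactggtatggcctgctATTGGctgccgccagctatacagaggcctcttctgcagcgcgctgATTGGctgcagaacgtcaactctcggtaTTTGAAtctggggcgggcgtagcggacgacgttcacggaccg
Top2a: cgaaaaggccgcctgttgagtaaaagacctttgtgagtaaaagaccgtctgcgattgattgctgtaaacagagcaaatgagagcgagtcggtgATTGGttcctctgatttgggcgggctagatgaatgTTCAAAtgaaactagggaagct
Pttg1: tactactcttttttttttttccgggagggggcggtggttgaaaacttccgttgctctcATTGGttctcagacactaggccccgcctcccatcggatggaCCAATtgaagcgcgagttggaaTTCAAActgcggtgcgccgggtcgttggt
Ccnb1: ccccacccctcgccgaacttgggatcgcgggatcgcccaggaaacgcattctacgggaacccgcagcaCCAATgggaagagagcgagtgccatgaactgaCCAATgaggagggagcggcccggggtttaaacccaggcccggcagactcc
Ndc80: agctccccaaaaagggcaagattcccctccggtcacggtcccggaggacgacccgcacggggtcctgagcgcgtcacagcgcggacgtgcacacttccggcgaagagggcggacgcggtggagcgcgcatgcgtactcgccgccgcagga
In Cdk1 the TTTGAA nearest the start begins 16 bases before it, and CCAAT letters begin 49 and 81 bases before it. In Prc1 the positions are 18 and 50 bases, in Top2a 22 and 57 bases, in Tacc3 42 and 70 bases, and in Pttg1 29 and 51 bases. In these 5 stretches a CCAAT therefore lies before the TTTGAA nearest the start. In Cdc20 a CCAAT at 86 bases lies before the TTTGAA at 51 bases and a further one, at 41 bases, follows it. In Ndc80 the motif TTTGAA, on the reverse strand, begins 34 bases after the start, outside the bases shown.

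Some properties of the libraries bear on every result. There are 9 genes outside the members that switch between a high and a low state from library to library, and by these states the libraries fall into sets: every group at 12, 24 and 36 h is 1 set, and the 72 h libraries form 4 control and 4 lithium sets, each with CCD and cTAL libraries. Which libraries share a rat is not given in the labels, and p-values therefore reflect only how libraries vary, which may be technical variation, and at 12, 24 and 36 h the set cannot be told apart from the group. Tests on the means of sets are given beside the main results they change. A count given without such a test may be smaller under it. The segments carried their markers: Aqp2, the water channel of principal cells, averaged 4908 TPM in control CCD and 4.96 TPM in control cTAL at 72 h, and Umod, uromodulin of the thick limb, averaged 67.5 and 64659 TPM. Between 10888 and 12411 genes had at least 1 TPM in a library. Immune markers (14 genes) summed to 19.8 to 619.5 TPM in control CCD and to 2103 to 6400 TPM in control cTAL libraries at 72 h.

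In CCD the members rose with lithium. At 12 h 5 of 51 passed the test as higher, 9.8% of them against 7.96% of all genes tested. At 24 h, 36 h and 72 h all 51 passed as higher, against 19.9%, 25.5% and 22.0% of all genes tested. The differences were largest at 36 h and smaller at 72 h. On the means of library sets 49 passed at 72 h, and each earlier group is a single set, so its set mean is a single value. In cTAL at 72 h no member rose, and 22 of the 45 that could be tested fell when each library was counted as a replicate. The corresponding share of all genes tested was 0.590%. None of the 45 passed in limma on the means of library sets (34 at an unadjusted p under 0.05) or with the set as a random effect (33). The share of all genes at that unadjusted threshold was not computed, so such counts, here and below, have no background. The summed TPM of the 51 members gives the scale. The 12 h CCD means were 620 ± 125 TPM (SD, n = 3) for control and 764 ± 278 TPM (SD, n = 2) for lithium libraries. The corresponding means were 950.2 and 2981 TPM after 24 h, 369 and 4132 TPM after 36 h, and 732 and 2409 TPM after 72 h. These are ratios of lithium to control of 1.23, 3.14, 11.2 and 3.29. In cTAL it averaged 269 in control and 93.4 in lithium libraries, a ratio of 0.347. In a bulk sample, more dividing cells and more RNA of these genes per cell cannot be told apart.

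**Figure D1:**
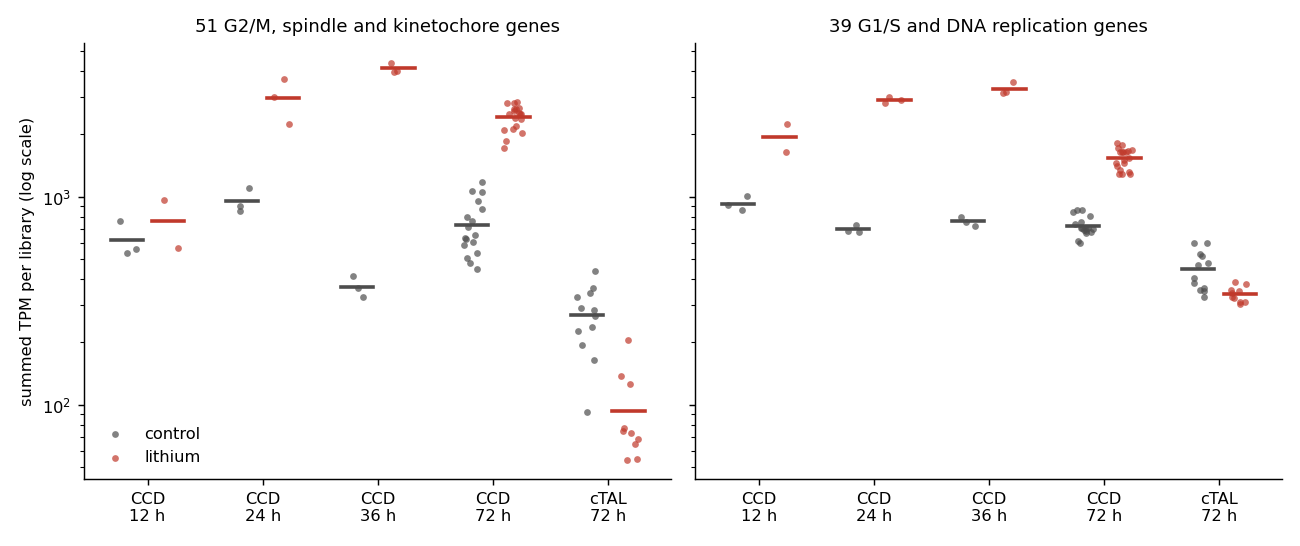
Summed TPM per library (log axis) of the 51 G2/M, spindle and kinetochore genes (left) and of 39 G1/S and DNA replication genes (right), with 1 point per library and a bar at the group mean, control in grey and lithium in red. The left panel separates control from lithium CCD libraries at 24, 36 and 72 h and not at 12 h, whereas the right panel separates them at all 4 times.

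At 12 h the members had hardly moved. Called genes are those with a Benjamini-Hochberg adjusted p under 0.05 in limma on log2(TPM + 1), a scale that understates the change of low genes. Of 51 members tested, 5 were called and all 5 were higher, 9.8% of the members against 7.96% of 12016 genes called higher in this comparison, so the share is near the background. The median difference was 0.23 on the log2 scale, against 0.06 over all genes tested. The 5 were Pkmyt1, the inhibitory kinase of CDK1, at 1.11 (SE 0.23, adjusted p = 0.00453), the kinetochore genes Spc24 at 1.01 (SE 0.13, adjusted p = 8.24e-05), Nuf2 at 0.83 (SE 0.23, adjusted p = 0.0247) and Cenpt at 0.75 (SE 0.19, adjusted p = 0.0145), and Cdca8, which encodes borealin of the chromosomal passenger complex, at 0.79 (SE 0.17, adjusted p = 0.00629). Spc24 was at 16.3, 22.0 and 22.2 TPM in control and at 37.5 and 45.3 TPM in lithium libraries, and the groups did not overlap. Pkmyt1 was at 8.58, 9.95 and 10.6 TPM in control and at 16.8 and 28.8 TPM in lithium libraries. Here too every lithium library lay above every control one, but the pair of lithium libraries was far apart.

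The same spread between the 2 lithium libraries at 12 h ran through the members: their summed TPM was 567.7 and 961, the lower inside and the higher above the control range from 536.9 to 763.9. Without lithium replicate 1 the count of called members was 9, without lithium replicate 2 it was 2 (1 higher and 1 lower), and without control replicate 1 it was 3. Of the 5 genes, Spc24 passed with any 1 library of the 12 h groups left out. Nuf2 did not pass without control replicate 1 or 2 or without either lithium library (adjusted p from 0.0589 to 0.161). Pkmyt1 (adjusted p = 0.105), Cdca8 (0.102) and Cenpt (0.0967) did not pass without lithium replicate 2, and Cenpt also not without control replicate 1 (0.0602). On the means of library sets limma called none of the 51, with 3 at an unadjusted p under 0.05. Every lithium library was above every control library for 9 of the 51, 17.6% of them against 23.3% of all genes. The lowest differences among members of at least 5 TPM were those of Nusap1, a spindle protein, at -0.44 (adjusted p = 0.298), Bub1b at -0.42 (adjusted p = 0.289) and Plk1 at -0.23 (adjusted p = 0.613), and none of them passed the test.

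By 24 h all 51 members were called and higher, against 19.9% of 11909 genes called higher, with a median of 1.58 against 0.13 over all genes. The differences ran from 0.95 for Nek2, a centrosome kinase, to 3.24 for Ckap2l, a spindle protein, followed by Spc24 at 2.17 (SE 0.12, adjusted p = 1.55e-09) and Melk, a kinase expressed in dividing cells, at 2.16 (SE 0.25, adjusted p = 8.5e-06). In 50 of 51 members every lithium library exceeded every control library, against 33.4% of all genes, and the exception was Ccnb1. On the means of library sets 19 members were called, all higher. At 36 h all 51 were called again, against 25.5% of 12069 genes called higher, with a median of 3.28 against 0.13, from 2.12 for Racgap1 to 4.08 for Ckap2l, 4.05 (SE 0.27, adjusted p = 4.59e-09) for Gtse1, a G2-phase microtubule protein, and 4.02 (SE 0.25, adjusted p = 2.47e-09) for Tacc3, which bridges spindle microtubules. No member's groups overlapped at 36 h, where 34.1% of all genes had every lithium library above every control library, and on the means of sets the count was again 51. At 72 h all 51 were called, against 22.0% of 11644 genes called higher, with a median of 1.55 against -0.003 over all genes, from 0.54 for Cdc25c to 2.48 for Gtse1. With 17 and 19 libraries, 23 of 51 members had groups that did not overlap, 45.1% of them against 1.63% of all genes, and 49 were called on the means of sets. Rescaling by median-of-ratios moved the median of all genes by more than 0.1 at 24 h and at 36 h, to -0.003 and 0.003, and the members' medians became 1.43 and 3.14.

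**Figure D2:**
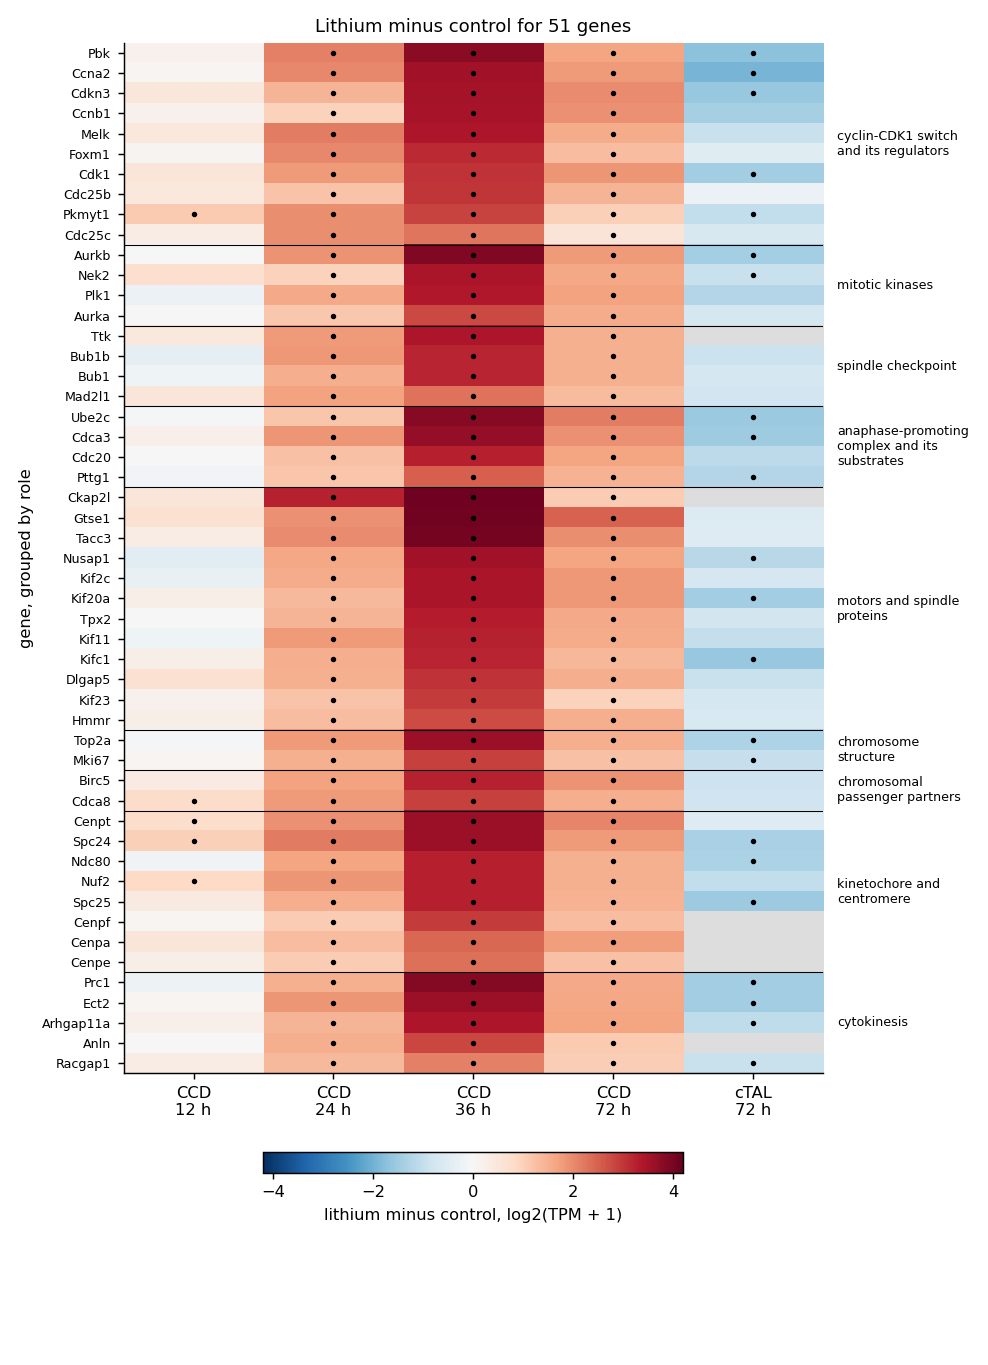
Lithium minus control in mean log2(TPM + 1) for each of the 51 genes (rows, grouped by role) in the 5 comparisons (columns), in red where lithium was higher and in blue where it was lower, with a dot where limma's adjusted p was under 0.05 and grey where the gene was not tested. The CCD columns carry 5, 51, 51 and 51 dots, and the cTAL column carries 22, all on blue cells.

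In the cyclin-CDK1 switch, Cdk1, the kinase that drives mitosis, was at 40.0, 41.6 and 54.1 TPM in control and 52.3 and 80.6 TPM in lithium libraries at 12 h. At 24 h the values were 47.8, 56.7 and 66.6 TPM and 154, 217 and 236 TPM, and at 36 h they were 28.8, 30.6 and 41.4 TPM and 260.4, 275 and 295 TPM. The groups overlapped at 12 h and were apart at 24 h and 36 h, when the lithium level was highest and the control level lowest. At 72 h control libraries ran from 30.0 to 79.7 TPM with a median of 46.5 and lithium libraries from 141 to 211 TPM with a median of 174, with no overlap. The differences for Cdk1 were 0.52 (SE 0.21, adjusted p = 0.122) at 12 h, 1.80 (SE 0.19, adjusted p = 2.07e-06) at 24 h, 3.02 (SE 0.19, adjusted p = 2.7e-09) at 36 h and 1.87 (SE 0.11, adjusted p = 8.87e-18) at 72 h.

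Ccnb1 encodes cyclin B1, the partner that activates CDK1. It was at 38.5, 39.7 and 58.1 TPM in control and 56.9, 94.7 and 127 TPM in lithium libraries at 24 h, and at 9.24, 11.7 and 14.8 TPM and 129, 129 and 160.4 TPM at 36 h. The lowest lithium library overlapped the controls at 24 h, and the groups were apart at 36 h, with means of 11.9 and 139.6 TPM. The differences were 0.97 (SE 0.30, adjusted p = 0.0271), 3.46 (SE 0.30, adjusted p = 1.49e-07) and 1.93 (SE 0.17, adjusted p = 3.81e-12) at 24, 36 and 72 h. The call at 24 h was lost without either of 2 control libraries or either of 2 lithium libraries, where the adjusted p ranged from 0.0778 to 0.143. Foxm1, the factor that switches on many G2 genes, went from a mean of 6.21 ± 1.50 to 28.8 ± 8.87 TPM at 24 h and from 3.03 ± 0.67 to 33.9 ± 2.34 TPM at 36 h (SD, n = 3 per group), differences of 2.03 and 3.12. Within this role the largest rises at 36 h were those of Pbk, a mitotic kinase, at 3.77, Ccna2, cyclin A2, at 3.52, and Cdkn3, a CDK-associated phosphatase, at 3.49. Cdc25c, a phosphatase that activates CDK1, had the smallest rise of the role at 36 h, 2.24, and the smallest of all members at 72 h, 0.54 (SE 0.12, adjusted p = 0.000536).

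Among mitotic kinases, Plk1, polo-like kinase, was at 4.79, 5.30 and 6.85 TPM in control and at 62.0, 64.9 and 74.5 TPM in lithium libraries at 36 h. Aurkb, the kinase of the chromosomal passenger complex, was at 4.31, 5.13 and 7.72 TPM and 95.0, 96.6 and 99.2 TPM. In both genes every lithium library was far above every control library. At 72 h Plk1 ran from 4.40 to 24.0 TPM with a median of 10.3 in control and from 21.8 to 55.9 TPM with a median of 40.8 in lithium libraries, and Aurkb ran from 5.83 to 23.4 TPM with a median of 13.9 and from 32.6 to 57.0 TPM with a median of 49.9. The differences for Aurkb were 1.90 (SE 0.21, adjusted p = 4.07e-06), 3.90 (SE 0.21, adjusted p = 6.72e-10) and 1.80 (SE 0.12, adjusted p = 4.32e-16) at 24, 36 and 72 h, and those for Plk1 were 1.58, 3.37 and 1.69. Birc5, survivin, which targets Aurora B to the centromere, went from 7.98 ± 2.51 to 81.0 ± 7.46 TPM at 36 h (SD, n = 3 per group), a difference of 3.22. Aurka and Nek2, kinases of the centrosome, differed by 2.78 and 3.44 at 36 h.

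In the spindle checkpoint, Bub1b, which encodes the checkpoint kinase BUBR1, was at 5.74, 7.15 and 9.23 TPM in control and 25.5, 26.6 and 32.5 TPM in lithium libraries at 24 h. At 36 h the values were 2.16, 2.23 and 2.29 TPM and 26.2, 30.0 and 30.7 TPM. The lithium level of Bub1b was thus already at its 36 h height at 24 h, and the difference grew as the control level went down. Mad2l1, whose product MAD2 inhibits CDC20, went from 11.0 ± 1.58 to 37.9 ± 6.02 TPM at 24 h and from 9.00 ± 2.20 to 47.3 ± 3.92 TPM at 36 h (SD, n = 3 per group). Its differences were 1.70, 2.30 and 1.35 at 24, 36 and 72 h, all called. Bub1 and Ttk, the other checkpoint kinases, differed by 3.21 and 3.39 at 36 h.

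The role of the anaphase-promoting complex and its substrates held 4 genes, all called higher at 24, 36 and 72 h. Ube2c, the ubiquitin-conjugating enzyme of the complex, was at 90.4, 98.9 and 116 TPM in control and 158, 249 and 297 TPM in lithium libraries at 24 h. At 36 h the values were 26.2, 26.3 and 26.5 TPM and 338, 388 and 449.6 TPM, the highest level of any member in any group. Ube2c differed by 1.15 (SE 0.23, adjusted p = 0.00156), 3.84 (SE 0.23, adjusted p = 2.44e-09) and 2.15 (SE 0.14, adjusted p = 4.72e-16) at 24, 36 and 72 h. At 72 h it ran from 32.1 to 122 TPM with a median of 54.4 in control and from 183 to 364 TPM with a median of 293 in lithium libraries, with no overlap between them. Cdc20, the activator of the complex, was at 14.5, 22.9 and 23.1 TPM and 187, 189 and 227 TPM at 36 h, a difference of 3.28 (SE 0.25, adjusted p = 2.77e-08). Pttg1, securin, a substrate of the complex, was at 5.63, 7.75 and 9.22 TPM and 41.1, 43.5 and 59.0 TPM, a difference of 2.52 (SE 0.26, adjusted p = 8.69e-07). Unlike most members, Pttg1 had nearly the same lithium mean at 24, 36 and 72 h, 44.1 ± 16.3, 47.9 ± 9.67 and 46.3 ± 7.18 TPM (SD, n = 3, 3 and 19).

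At the kinetochore, Ndc80, the microtubule-binding subunit of the complex of the same name, was at 2.58, 2.70 and 2.92 TPM in control and 31.5, 36.0 and 38.3 TPM in lithium libraries at 36 h. Its partners in the complex are Nuf2, Spc24 and Spc25, and the 4 differed by 3.28, 3.27, 3.60 and 3.26 at 36 h. At 12 h Spc24 and Nuf2 had passed the test and Ndc80 and Spc25 had not, with differences of -0.15 and 0.36, but the difference between genes was not tested. The Nuf2 call was lost without either of 2 control libraries and without either lithium library. Cenpt, which links the Ndc80 complex to centromeric chromatin, was at 2.72, 3.64 and 3.73 TPM and 5.92 and 6.71 TPM at 12 h and at 1.71, 1.85 and 2.25 TPM and 34.5, 35.9 and 36.2 TPM at 36 h. The groups did not overlap at either time. Cenpa, the centromeric histone H3 variant, was low, at 0.96, 1.04 and 1.20 TPM and 9.20, 10.4 and 10.6 TPM at 36 h, a difference of 2.42 (SE 0.25, adjusted p = 1.22e-06). At 72 h Cenpa ran from 0.33 to 3.38 TPM with a median of 1.84 in control and from 6.01 to 10.3 TPM with a median of 8.95 in lithium libraries, which did not overlap, and 73.1% of its 36 h difference was still present, the highest such share of any member. Cenpe and Cenpf, a kinetochore motor and a corona protein, reached at most 7.26 and 13.1 TPM in any library.

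Motors and spindle proteins were the largest role, with 12 members. Kif11, the motor that pushes spindle poles apart, was at 3.59, 4.04 and 4.73 TPM in control and 43.0, 46.4 and 50.3 TPM in lithium libraries at 36 h, a difference of 3.22 (SE 0.20, adjusted p = 2.67e-09). Kif20a, a motor of the central spindle, was at 6.52, 14.2 and 16.8 TPM and 127, 129 and 149 TPM, a difference of 3.42 (SE 0.31, adjusted p = 2.59e-07). Tpx2, which nucleates spindle microtubules and activates Aurora A, went from 6.55 ± 0.88 to 73.3 ± 6.80 TPM (SD, n = 3 per group). All 12 genes of the role were higher in every lithium than in every control library at 24 h and 36 h. Gtse1 stood out at 72 h, when it ran from 2.76 to 8.47 TPM with a median of 4.09 in control and from 19.6 to 42.9 TPM with a median of 30.0 in lithium libraries, a difference of 2.48 (SE 0.11, adjusted p = 1.89e-20).

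Ckap2l had the largest differences at 24 h and 36 h, but its control level did not behave like that of the other members. It was at 2.86, 3.30 and 4.41 TPM in control libraries at 12 h, at 0.27, 0.54 and 0.64 TPM at 24 h and at 0.14, 0.16 and 0.17 TPM at 36 h, so that controls at 24 h and 36 h lay under 1 TPM. In lithium libraries it was at 9.14, 14.6 and 16.0 TPM and 17.5, 17.8 and 20.6 TPM at those times. At 72 h lithium libraries ran from 0.50 to 18.3 TPM with a median of 8.86, and the lowest values, 2.05 and 0.50 TPM, were in replicates 14 and 15, both of lithium library set 3. A level that moves with the library set was seen in the 9 genes that define the sets, and its part in the Ckap2l difference was not tested.

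For cytokinesis, Prc1, which bundles the microtubules of the central spindle, was at 45.4, 48.1 and 57.4 TPM in control and 105, 143 and 192 TPM in lithium libraries at 24 h. At 36 h it was at 11.7, 11.8 and 14.0 TPM and 188, 196 and 201 TPM, a difference of 3.86 (SE 0.21, adjusted p = 7.5e-10). Ect2, the exchange factor that starts the cleavage furrow, was at 5.01, 5.62 and 6.34 TPM and 77.7, 78.6 and 79.0 TPM at 36 h, a difference of 3.58 (SE 0.29, adjusted p = 6.71e-08). Racgap1, the centralspindlin subunit that recruits Ect2, rose least of all members at 36 h, from 11.9, 17.4 and 20.9 TPM to 71.7, 74.6 and 76.5 TPM, a difference of 2.12 (SE 0.21, adjusted p = 7.66e-07). The control level of Racgap1 was higher than that of Ect2, and it fell less between 24 h and 36 h. Anln, anillin of the contractile ring, and Arhgap11a, a GTPase-activating protein, differed by 2.82 and 3.39.

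Of the chromosome structure genes, Top2a, topoisomerase II alpha, which untangles chromosomes, was at 20.6, 23.6 and 31.4 TPM in control and 64.4, 87.9 and 118 TPM in lithium libraries at 24 h. At 36 h it was at 6.20, 6.74 and 9.99 TPM and 95.8, 96.4 and 113 TPM, a difference of 3.59 (SE 0.26, adjusted p = 1.75e-08). Mki67, the widely used proliferation marker Ki-67, was at 6.50, 7.77 and 9.52 TPM and 18.8, 21.8 and 33.1 TPM at 24 h and at 1.18, 2.66 and 3.17 TPM and 22.1, 22.1 and 23.6 TPM at 36 h. Its lithium mean was the only one of the 51 that was not higher at 36 h than at 24 h. The differences of Mki67 were 1.49, 2.87 and 1.24 at 24, 36 and 72 h.

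Comparisons of times up to 36 h used the fit of the 6 CCD groups at 12, 24 and 36 h. The comparison of 72 h with 36 h used all 8 CCD groups. In these fits the lithium effect itself was compared between times. Between 12 h and 24 h it grew in 33 of 51 members, against 5.68% of 12605 genes, with a median of 1.28 on the log2 scale, led by Ckap2l at 2.74, Bub1b at 2.23 (SE 0.31, adjusted p = 0.000339) and Nusap1 at 2.07 (SE 0.34, adjusted p = 0.0012). Without lithium replicate 1 at 12 h the count was 16. Between 24 h and 36 h it grew in 44 of 51, against 4.43% of 12492 genes, with a median of 1.67, led by Ube2c at 2.68 (SE 0.33, adjusted p = 7.64e-05), Ccnb1 at 2.50 (SE 0.43, adjusted p = 0.00151) and Nek2 at 2.48 (SE 0.29, adjusted p = 4.04e-05). The 7 that did not pass were Mki67, Pkmyt1, Cdc25c, Racgap1, Cenpa, Ckap2l and Mad2l1, with differences from 0.29 to 1.38, and they are named after their values were seen. Between 36 h and 72 h it shrank in 49 of 51, against 3.17% of 13417 genes, with a median of -1.70, led by Ckap2l at -3.01, Prc1 at -2.26 (SE 0.35, adjusted p = 2.73e-05) and Pbk at -2.12 (SE 0.39, adjusted p = 0.000347). Cenpa at -0.65 and Cenpe at -1.09 did not pass. On the means of library sets limma called no member in any of these 3 comparisons, with 32, 42 and 50 members at an unadjusted p under 0.05. The share of all genes at that unadjusted threshold was not computed.

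The growth between 24 h and 36 h came from both groups. Mean log2(TPM + 1) of the members in lithium libraries rose by a median of 0.45, and in 50 of 51 the mean was higher at 36 h. In control libraries it fell by a median of 1.20 over the same time, and all 51 means were lower. Every control library at 36 h lay below every control library at 24 h for 47 of 51 members, 92.2% of them against 12.6% of all genes, the exceptions being Pkmyt1, Mad2l1, Cdc25c and Racgap1. In lithium libraries 25 of 51 members had all 36 h libraries above all 24 h ones, against 21.5% of all genes. Proximal tubule markers moved in the same control libraries. Their summed TPM was 703.8, 963.8 and 2163 in control libraries at 24 h and 119, 206.7 and 211.7 in those at 36 h, and 8 of 9 differed over the 4 times, with a median span of 2.69. At 24 h they summed to 186.7, 263 and 271.2 TPM in lithium libraries, and 5 of 9 were lower with lithium, with a median of -2.07 (1 of 9 on the means of library sets). At 36 h none of 8 was called. Mitochondrial transcripts made up 10.7% of TPM in control and 7.38% in lithium libraries at 24 h, and 9.64% and 7.97% at 36 h. The part of these in the members' levels was not tested. Between 12 h and 24 h the lithium mean of the members had risen by a median of 1.93 and the control mean by 0.54. The control level of 51 members was then higher by a median of 0.84 at 72 h than at 36 h, and the lithium level was lower by 0.89 (-0.89 on the log2 scale). Over the 4 times the control libraries differed in 33 of 51 members, against 15.4% of 12817 genes, and Prc1, Ube2c and Ckap2l spanned the most, with group means 1.92, 1.91 and 1.95 apart. That count was 17 without control replicate 1 at 36 h, 19 without control replicate 3 at 36 h, and 0 on the means of sets (25 at an unadjusted p under 0.05).

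**Figure D3:**
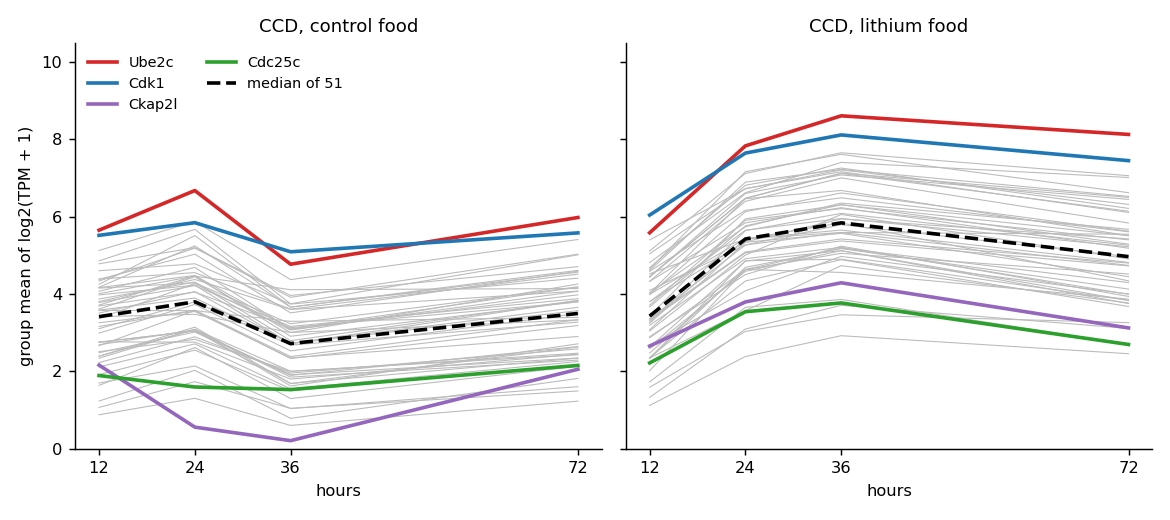
Group mean of log2(TPM + 1) for each of the 51 genes (grey lines) at 12, 24, 36 and 72 h in control (left) and lithium CCD libraries (right), with Cdk1, Ube2c, Cdc25c and Ckap2l in colour and the median of the 51 genes dashed. Control means were lower at 36 h than at 24 h in all 51 genes, and lithium means were higher at 36 h in 50 of 51.

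The share of the 36 h difference that was already present at 24 h varied between members. Its median was 49.4%. It was lowest for Nek2 (27.7%), Ccnb1 (27.9%), Ube2c (30.1%), Cenpf (36.6%), Cdc20 (37.7%) and Prc1 (38.6%). It was highest for Cdc25c (86.8%), Ckap2l (79.3%), Mad2l1 (74.0%), Pkmyt1 (68.7%), Racgap1 (65.0%) and Foxm1 (64.8%). By role the median share ran from 41.8% for the anaphase-promoting complex and its substrates and 43.8% for mitotic kinases to 57.2% for the passenger partners and 58.6% for the cyclin-CDK1 switch. Within the cyclin-CDK1 switch alone the shares ran from 27.9% for Ccnb1 to 86.8% for Cdc25c. These shares are a description, and no test was made of the order.

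Genes of the same and of the preceding phase that are no members were set beside them. These lists too were chosen with earlier results of these data known. Of 39 genes of G1/S and DNA replication, 33 were called higher at 12 h with a median of 1.08, when 5 of 51 members were and 7.96% of all genes were. In the fit on the means of library sets limma called none of the 39 at 12 h, with 32 at an unadjusted p under 0.05, and 35 at 24 h. The smallest p-values belonged to the helicase subunits Mcm5 and Mcm3, their loader Cdc6 and the primase subunit Prim1. In the order Mcm5, Cdc6, Mcm3, Prim1 the differences were 1.96 (SE 0.18, adjusted p = 4.72e-06), 1.98, 1.97 and 1.28. At 24 h all 39 were higher with a median of 2.29, at 36 h all 39 with a median of 2.25, and at 72 h 38 of 39 with a median of 1.08. Of all genes tested, 19.9%, 25.5% and 22.0% were called higher at those times. On the means of library sets 36 of the 39 were called at 72 h. From 24 h to 36 h the lithium effect on the 39 changed in 3 genes, upward for Rrm2, the ribonucleotide reductase subunit, at 1.92 (SE 0.24, adjusted p = 7.64e-05) and for Tk1, thymidine kinase, at 0.87, and downward for Prim1 at -0.85. In those 12 h the members' effect grew in 44 of 51. The summed TPM of the 39 genes in control libraries was 925, 695, 761 and 724 after 12, 24, 36 and 72 h. In lithium libraries the sums were 1931, 2909, 3299 and 1526, ratios of 2.09, 4.19, 4.33 and 2.11. The control sum therefore did not share the fall of the members at 36 h.

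Of all genes tested, 7.96%, 19.9%, 25.5% and 22.0% were called higher at 12, 24, 36 and 72 h. Among the other G2/M genes, the kinetochore and centromere list had 12 of 28 genes called higher at 12 h, 28 of 28 at 24 h and 36 h and 26 of 28 at 72 h. Its smallest p-values at 12 h were those of Cenph at 1.57 (SE 0.18, adjusted p = 3.23e-05), Pmf1 at 1.12, Cenpm at 1.25 and Ska2 at 0.80. These encode subunits of the centromere-associated network of the inner kinetochore, the Mis12 complex and the Ska complex. Of 13 CDK accessory and transcription genes, 5 were higher at 12 h, 11 at 24 h with 1 lower, 13 at 36 h and 11 at 72 h, and Cks1b and Cks2, the small subunits that bind CDK1, were at 2.42 (SE 0.12, adjusted p = 3.6e-10) and 3.28 (SE 0.15, adjusted p = 2.05e-10) at 36 h. Of 13 condensin and cohesin control genes, 2, 13, 13 and 12 were higher at the 4 times, with Espl1, separase, at 3.32 at 36 h. Of 21 other spindle, motor and cytokinesis genes, 0, 20, 21 and 20 were higher, with Ckap2 and Shcbp1 at 3.55 and 3.29 at 36 h. The medians of these 4 lists at 36 h were 2.46, 1.92, 2.37 and 2.91, each under the members' 3.28. At 72 h the means of library sets gave 24, 8, 12 and 20 calls in these lists, all higher. With the means of library sets 0 genes of the 4 lists were called at 12 h (9 of 28, 2 of 13, 0 of 13 and 0 of 21 at an unadjusted p under 0.05 in limma), and at 24 h the counts were 14, 6, 9 and 9, all higher.

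**Figure D4:**
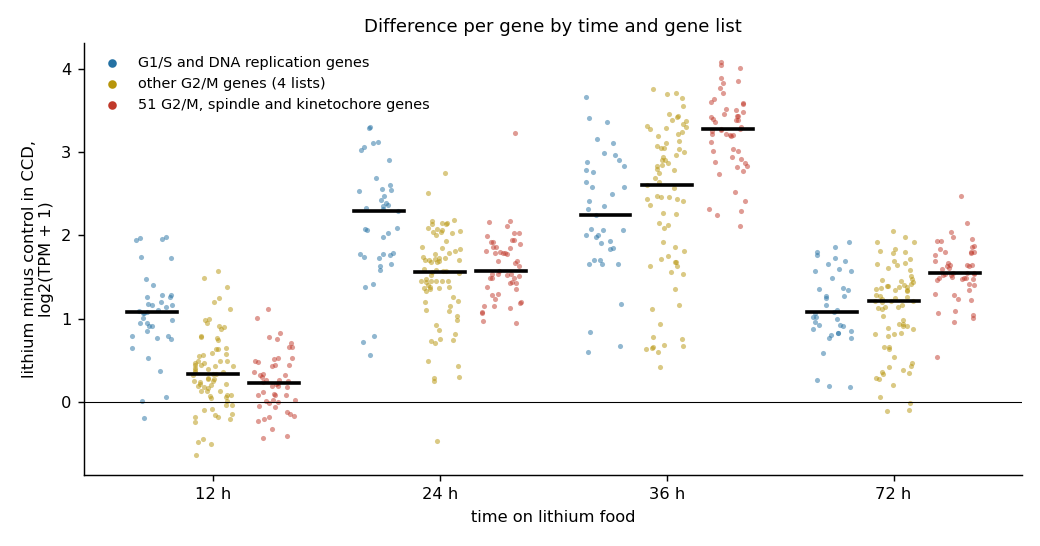
Lithium minus control in log2(TPM + 1) for each tested gene of the G1/S and DNA replication list (blue), of the 4 other G2/M lists (yellow) and of the 51 members (red) at 12, 24, 36 and 72 h in CCD, with a black bar at the median. The G1/S genes are highest at 12 h and 24 h (medians of 1.08 and 2.29) and the members at 36 h (3.28).

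In cTAL at 72 h the members moved the other way. All 51 had a lower mean in lithium than in control libraries, and 45 passed the filter of at least 1 TPM in 10 libraries. Of these 22 were called, all lower, against 0.590% of 11702 genes called lower, with a median of -1.04 against -0.075 over all genes. These calls count each library as a replicate, and limma called none of the 45, nor any other gene, on the means of library sets, with 34 of the 45 at an unadjusted p under 0.05. The levels were low to begin with. Cdk1 ran from 4.16 to 29.0 TPM with a median of 16.1 in control and from 0.21 to 12.2 TPM with a median of 5.09 in lithium libraries, a difference of -1.47 (SE 0.32, adjusted p = 0.027). Ube2c ran from 7.44 to 46.9 TPM with a median of 20.9 and from 2.09 to 14.3 TPM with a median of 6.12, a difference of -1.56 (SE 0.30, adjusted p = 0.0134). In both genes the medians were apart and the ranges overlapped, and no member had groups without overlap (0.0162% of all genes had every lithium library below every control one).

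The largest falls in cTAL were those of Ccna2 at -1.97 (SE 0.33, adjusted p = 0.00693), Pbk at -1.71 (SE 0.36, adjusted p = 0.0214) and Cdkn3 at -1.58 (SE 0.34, adjusted p = 0.0218). Ccna2 ran from 3.22 to 24.8 TPM with a median of 9.04 in control and from 0.12 to 8.22 TPM with a median of 1.38 in lithium libraries. By role the called members were 5 of 10 of the cyclin-CDK1 switch, 2 of 4 mitotic kinases, 0 of 2 passenger partners, 0 of 3 checkpoint genes, 3 of 4 of the anaphase-promoting complex and its substrates, 3 of 5 of the kinetochore, 3 of 11 motors and spindle proteins, 4 of 4 of cytokinesis and 2 of 2 of chromosome structure. For Top2a the control libraries ran from 2.05 to 11.2 TPM with a median of 4.66 and the lithium libraries from 0.07 to 5.69 TPM with a median of 1.21, a difference of -1.28 (SE 0.28, adjusted p = 0.0277). Ect2 ran from 0.59 to 11.9 TPM with a median of 3.31 and from 0 to 1.41 TPM with a median of 0.68, a difference of -1.48 (SE 0.28, adjusted p = 0.0114). Plk1 at -1.23 (adjusted p = 0.0783), Ccnb1 at -1.41 (adjusted p = 0.114) and Cdc20 at -1.09 (adjusted p = 0.0585) did not pass. The members not tested were Anln, Cenpf, Cenpe, Cenpa, Ckap2l and Ttk, whose control libraries ran 0.03 to 1.29 (median 0.52), 0.49 to 2.95 (median 1.29), 0.12 to 1.52 (median 0.61), 0.02 to 1.10 (median 0.46), 0.09 to 3.32 (median 1.47) and 0 to 3.12 (median 1.20) TPM. Their lithium libraries ran 0 to 0.37 (median 0.09), 0.01 to 0.49 (median 0.24), 0.01 to 0.52 (median 0.33), 0 to 0.70 (median 0.12), 0 to 0.56 (median 0.27) and 0 to 0.90 (median 0.04) TPM.

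The cTAL calls depended on which libraries were counted as replicates. On the means of library sets, and with the set as a random effect, limma called none of 45 members, with 34 and 33 at an unadjusted p under 0.05. No share of all genes at that unadjusted threshold was computed beside these counts. Leaving out control set 4 or lithium set 2 gave 0 calls (35 of 41 and 41 of 48 at an unadjusted p under 0.05), leaving out control set 2, lithium set 1 or lithium set 4 gave 13, 9 and 11, and testing all genes with no filter on low values gave 12 of 51. The direction held: the members' median difference ran from -1.24 to -0.90 over the 8 leave-outs of 1 set. Set means of the summed TPM were 364, 279.5, 185 and 298 in the 4 control sets and 75.6, 68.6, 171 and 78.4 in the 4 lithium sets. Each lithium set mean thus lay below each control set mean, but the sets were small. The value of 364 is control replicate 1 alone. The closest means, 185 and 171, are those of control replicates 6 to 8 and lithium replicates 6 and 7. In lithium set 3 both libraries, at 138 and 204 TPM, lay above all 8 libraries of the other lithium sets.

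**Figure D5:**
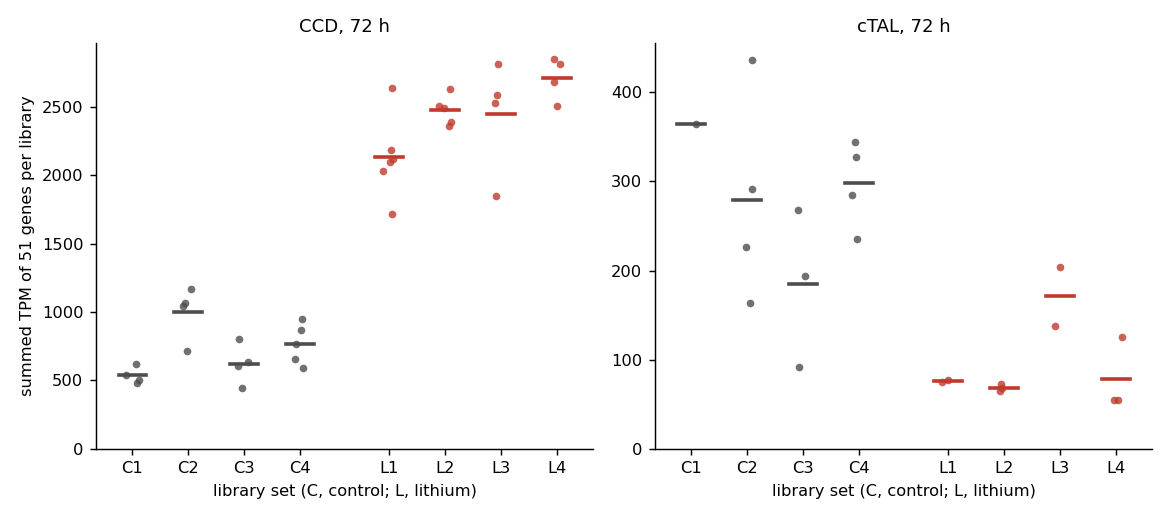
Summed TPM of the 51 genes per library at 72 h in CCD (left) and cTAL (right), with libraries placed by library set (C1 to C4, control; L1 to L4, lithium) and a bar at the mean of each set. In CCD every lithium library lies above every control library, and in cTAL single libraries overlap while the 4 lithium set means, up to 171, lie below the 4 control set means, from 185.

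Markers of other cell types were measured in the same libraries. Immune markers summed to 2103 to 6400 TPM (mean 3671) in control and to 1669 to 5527 TPM (mean 3411) in lithium libraries, and 0 of 11 tested were called. None of the 14 was at 0 in all libraries, while Cd79b, a B-cell marker, had a median under 1 TPM in both groups. Endothelial markers summed to 170.5 to 549.6 TPM (mean 374) in control and to 49.4 to 671 TPM (mean 232) in lithium libraries. None of the 9 was called, but all 9 were lower in lithium libraries, with differences from -1.33 to -0.45 and a median of -0.97, near the members' -1.04. The endothelial median on the means of library sets was -0.73, with 0 of 9 at an unadjusted p under 0.05. In CCD at 72 h immune markers summed to 248.5 and 360.4 TPM on average, with 1 of 10 called, and endothelial markers to 77.5 and 36.4 TPM, with 7 of 8 lower. On the means of library sets no immune marker and 3 of 8 endothelial markers were called there. Of 10 principal cell markers in CCD, 4 were lower and 1 higher with lithium at 12 h, and 3 were lower and 1 higher at 24 h, when their sum was 18964 TPM in control and 17932 TPM in lithium libraries. All 10 were lower at 36 h, with sums of 21327 and 10015 TPM, and at 72 h, with a median of -0.54. Of 10 intercalated cell markers, 1, 6, 5 and 10 were lower at the 4 times and none was higher, with a median of -0.54 at 72 h. Tests on the means of library sets gave 6 principal cell markers lower at 36 h and 6 at 72 h, and 7 intercalated cell markers at 72 h, with none of either list called at 12 h or 24 h. The share of all genes called lower in CCD is not given here, so these marker counts have no background. The part of these cell types in the members' levels was not tested.

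The lithium effect at 72 h differed between the segments in all 51 members, higher in CCD than in cTAL, against 11.8% of 13083 genes, with a median of 2.55 against 0.08. The largest differences of effect were those of Ccna2 at 3.77 (SE 0.31, adjusted p = 4.84e-15), Ube2c at 3.70 (SE 0.31, adjusted p = 7.07e-15) and Cdkn3 at 3.57 (SE 0.32, adjusted p = 7.43e-14), and the smallest was that of Cdc25c at 1.20 (SE 0.26, adjusted p = 0.000363). The count was 51 when any 1 set was left out and with the set as a random effect, and 47 on the means of sets. Of 39 G1/S genes, 36 differed the same way with a median of 1.40, and 28 did on the means of library sets. In cTAL itself 4 of 32 were lower (Rrm2 at -1.59, Tk1 at -1.23, Uhrf1 at -1.16 and Ccne2 at -1.06), against 0.590% of all genes tested. The other G2/M genes in cTAL gave 2 of 19 kinetochore genes lower (Ska3 at -1.10 and Cenpw at -0.98), 2 of 9 spindle genes lower (Kif22 at -1.45 and Ckap2 at -1.06), and 0 of 10 and 0 of 8 in the other lists. None of these cTAL calls was kept on the means of library sets, where 9 of 32, 6 of 19 and 6 of 9 genes of these 3 lists had an unadjusted p under 0.05.

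The segments also differed before lithium. In control libraries at 72 h, 50 of 51 members were higher in CCD than in cTAL, against 49.8% of 11925 genes, with a median of 1.18 against 0.28. Every cTAL library lay below every CCD library for 9 members, 17.6% of them against 8.39% of all genes. The largest differences were those of Kif23, a motor of the central spindle, at 2.59 (SE 0.19, adjusted p = 2.82e-19), its partner Racgap1 at 2.38 (SE 0.16, adjusted p = 1.9e-20), and Cdc20 at 1.84 (SE 0.18, adjusted p = 1.06e-13). Kif23 ran from 11.0 to 29.8 TPM with a median of 18.6 in CCD and from 0.08 to 6.00 TPM with a median of 2.47 in cTAL, and Racgap1 ran from 5.65 to 30.5 TPM with a median of 16.9 and from 0.26 to 3.79 TPM with a median of 2.79. Arhgap11a was the only member that did not pass, at 0.25 (SE 0.17, adjusted p = 0.179), with 1.31 to 6.51 (median 3.75) TPM in CCD and 1.96 to 4.56 (median 3.10) TPM in cTAL. Rescaling by median-of-ratios moved the median of all genes from 0.28 to 0.03 and that of the members from 1.18 to 0.93, with 49 members called. Over all alternatives, set means among them, the count ran from 43 to 51.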

How the data were processed

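RNA sequencing of 75 libraries from microdissected rat CCD (53) and cTAL (22) was analysed from the deposited table of TPM per gene. Per the submitters' processing notes, the authors used STAR 2.5.2b, RSEM 1.2.31 and the build Rnor_6.0. The deposited TPM values are divided by transcript length and library total, so no counting interval could be given, and reads of near-identical or overlapping genes may be shared. SMARTer V4 cDNA and Nextera XT libraries were made, per the labels' protocols.

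Groups follow the labels. Linear models of limma 3.58.1, run in R 4.3.3 with a trend of variance on mean level, were fitted to log2(TPM + 1), and tests were two-sided with Benjamini-Hochberg adjustment over all genes tested and a threshold of 0.05. A gene was tested if its TPM was at least 1 in as many libraries as the smallest group of the comparison. The 6 groups at 12, 24 and 36 h shared 1 fit, which also gave the contrasts of lithium effect between these times. Segment contrasts used the 4 groups at 72 h. The contrast of 72 h with 36 h and the test of controls over time used the 8 CCD groups. Controls over time were compared with a moderated F test. The analysis was tested on simulated data with independent noise in each library. Library sets were not simulated, so that test cannot show how sets affect the calls.

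Library sets came from 9 genes of bimodal level, clustered by average linkage on their states with a height threshold of 2.5, where joins within sets reached 2.0 and those between sets began at 2.71. Set means and leave-outs of sets were alternatives, as were a pseudocount of 0.1, no filter on low TPM, median-of-ratios and quantile scaling, a replicate block and leaving out single libraries of small groups. The set as a random effect, and set means for lists other than the members, were added after seeing the data. Levels, motifs and figures used pandas 2.3.3, numpy 2.4.6, scipy 1.17.1 and matplotlib 3.10.9 in Python 3.11.15.

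The members and lists were chosen with earlier results of these data known. Named genes followed a rule: 1 or more members per role in full, the 3 largest rises and falls of a comparison among members of at least 5 TPM, and up to 4 genes of smallest p per list.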

Additional observations from a re-analysis of the deposited data

Results flagged for a closer look

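Among the 10 lithium libraries of cTAL, replicate 7 (lithium library set 3) stood apart from the others by Dixon's test at the 95% level in 5 of 52 values tested, the 51 members and their sum. Chance marks about 1 group in 20, but the members moved together, so the 52 tests are not independent. Replicate 7 was the highest library for Aurkb at 6.60 TPM, for Ccna2 at 8.22 TPM, for Kif23 at 3.42 TPM, for Mki67 at 2.15 TPM and for Plk1 at 4.21 TPM. The next highest libraries of these genes were at 2.33, 3.55, 1.59, 1.08 and 1.87 TPM. Replicate 7 was also the highest of the 10 for summed endothelial markers, at 671 TPM with the next at 322 TPM. For summed immune markers it was at 5527 TPM, with the next at 4934 TPM. The part of these cell types in its member levels was not tested.

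Effects under the same contrast differed between groups, each by a test of the difference itself in limma. The lithium effect at 72 h differed between CCD and cTAL in 51 members, all higher in CCD, against 11.8% of all genes tested. In CCD it differed between 12 h and 24 h in 33 members and between 24 h and 36 h in 44, all higher at the later time. The shares of all genes tested were 5.68% and 4.43%. Between 36 h and 72 h the lithium effect differed in 49 members, all lower at 72 h, against 3.17% of all genes tested. How these counts depend on library sets and on single libraries is given below.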

How the results depend on the processing

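The counts of called members at 36 h (51), at 72 h (49 to 51), for the segment difference in lithium effect (47 to 51) and for control segments (43 to 51) stayed within 1.5 times their values in every alternative run. Of the members followed gene by gene, a part of the 51 and not in every comparison, none changed direction. The other members were not followed gene by gene. On the means of library sets the counts were 0 at 12 h, 19 at 24 h, 0 in cTAL and 0 for each of the 4 comparisons over time, and that fit called 3, 313 and 0 of all genes at 12 h, at 24 h and in cTAL. At 12, 24 and 36 h it has 1 mean per group and borrows its spread from the 72 h sets. In cTAL the count of 22 became 12 with no filter on low TPM, 0 with the set as a random effect (chosen after seeing the data), 13 without control set 2, 0 without control set 4, 9 without lithium set 1, 0 without lithium set 2 and 11 without lithium set 4. Leaving out 1 library gave 2 to 9 called members at 12 h, 49 to 51 at 24 h, 51 at 36 h, 16 to 43 for 24 h against 12 h, 37 to 47 for 36 h against 24 h, 39 to 49 for 72 h against 36 h and 17 to 33 for controls over time. Correlations between same-numbered control and lithium libraries ran from -0.21 to 0.44, and 8 of 17 CCD pairs at 72 h were over 0.1. They cannot show what the replicate numbers stand for. Within each group at 72 h the library sets held consecutive numbers. With a replicate block the counts were 5, 51, 51 and 51 in CCD at the 4 times, 0 in cTAL (41 at an unadjusted p under 0.05), 51 for the segment difference, 50 for control segments, and 33, 44 and 49 over time. The cause of these changes was not tested. The unknown depth and the small early groups limit the precision.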
